A study of Homo sapiens with 12 samples.

Results

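The 9 genes described here encode transcription factors of the hepatocyte lineage: HNF4A, FOXA1, FOXA2, FOXA3, CEBPA, PROX1, ONECUT1, NR5A2 and NR1H4. They were chosen by name for their known role in the liver, with earlier results of these data known. All 9 were found among the 57500 genes counted in each library. The RNA came from HepG2, a line of human hepatocellular carcinoma cells, in 3 groups of 4 replicates that the submitters call independent. WT cells were the unmodified control. In shTST cells, thiosulfate sulfurtransferase (TST, a mitochondrial enzyme that turns cyanide into thiocyanate) was silenced with an shRNA plasmid delivered by lentivirus. The overTST cells were transduced with a lentivirus that carried a codon-optimized TST sequence under the CMV promoter. The study's methods describe selection of transduced cells with blasticidin, a step not described for WT cells. All 3 groups were kept in the usual medium with 400 µM glycine for 24 h, and no library from cells with an empty vector was analysed here. The sources do not say whether a line was derived from 1 clone, so a group stands for 1 line and the p-values measure the spread between its replicates.

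Hepatocyte identity rests on a small network of factors that bind each other's regulatory regions and those of shared liver genes. The FOXA proteins open chromatin at liver enhancers, HNF4A and CEBPA drive the genes of the differentiated hepatocyte, and PROX1 and ONECUT1 act early, when the liver bud grows and hepatocytes and bile duct cells part. NR1H4 (also called FXR) is the receptor for bile acids, and NR5A2 (LRH-1) acts with it in the control of bile acid synthesis.

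Regions upstream of the RNA start were available in RefSeq (GRCh38.p14) for 7 of the 9 genes, with 9 windows in all, and not for PROX1 and FOXA2. The windows of 3 genes that passed a test against WT are shown as the 250 bases before the start, read 5′ to 3′ on the strand of the gene. For HNF4A that result was lost with length correction, as given below. FOXA1 also passed in shTST, and its window is not shown. It had a GC content of 67.2% and held 0 matches to the motifs searched. HNF4A has an upstream start used in pancreas and a downstream start used in adult liver, known as P2 and P1, and both of its windows are given. Capitals mark the letters ATTGAT, the core of the ONECUT motif, or AGGTCA, the half-site of many nuclear receptors, on either strand.
HNF4A P2: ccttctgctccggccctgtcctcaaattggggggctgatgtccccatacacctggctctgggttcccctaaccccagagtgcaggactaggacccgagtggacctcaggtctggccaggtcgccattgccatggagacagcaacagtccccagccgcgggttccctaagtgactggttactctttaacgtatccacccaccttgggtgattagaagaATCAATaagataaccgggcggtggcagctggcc
HNF4A P1: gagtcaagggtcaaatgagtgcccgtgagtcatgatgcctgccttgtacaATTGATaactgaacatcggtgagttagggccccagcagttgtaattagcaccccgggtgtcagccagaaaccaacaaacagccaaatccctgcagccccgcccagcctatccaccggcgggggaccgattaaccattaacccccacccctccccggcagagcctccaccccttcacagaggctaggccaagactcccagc
ONECUT1: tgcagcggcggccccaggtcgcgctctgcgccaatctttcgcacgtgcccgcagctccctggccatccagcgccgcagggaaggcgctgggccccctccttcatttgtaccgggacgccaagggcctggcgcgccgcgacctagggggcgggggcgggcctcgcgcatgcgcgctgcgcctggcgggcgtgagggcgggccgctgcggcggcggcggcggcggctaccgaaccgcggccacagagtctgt
NR1H4: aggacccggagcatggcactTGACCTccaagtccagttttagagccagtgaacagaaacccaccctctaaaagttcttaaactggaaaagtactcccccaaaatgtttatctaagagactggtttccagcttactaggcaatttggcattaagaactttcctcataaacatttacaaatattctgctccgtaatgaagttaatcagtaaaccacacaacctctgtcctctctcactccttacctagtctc
The HNF4A windows lie on the + strand at chr20:44355449-44355698 and chr20:44400989-44401238. Each held 1 ONECUT core, 33 bases before the P2 start and 200 bases before the P1 start. Of 35116 windows of this length, 5.58% held that core. The NR1H4 window (chr12:100503110-100503359, + strand) precedes a start that lies 29652 bases inside the gene as the files give it, and held 1 receptor half-site 230 bases before that start, a sequence found in 12.1% of windows. The ONECUT1 window (chr15:52790337-52790586, − strand) held no match and had a GC content of 76.8%, where the median over all windows was 58%. Matches to FOXA (TGTTTAC, 2.98% of windows), HNF4 (CAAAGTCCA, 0.325%), C/EBP (TTGCNNAA, 9.05%) and NR5A (CAAGGTCA, 1.14%, which contains AGGTCA and so counts under both) were also searched, and the 4 windows shown held none. These matches describe letters only. The counts are per gene and do not separate HNF4A RNA by its starts.

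By the coordinates of the files (GRCh38), HNF4A (ENSG00000101076) lies at chr20:44355700-44434596 and NR1H4 (ENSG00000012504) at chr12:100473708-100564413, both on the + strand. ONECUT1 (ENSG00000169856) lies at chr15:52756989-52791078 and FOXA1 (ENSG00000129514) at chr14:37589984-37596059, both on the − strand. FOXA2 (ENSG00000125798) lies at chr20:22581005-22585455 on the − strand and PROX1 (ENSG00000117707) at chr1:213983181-214041502 on the + strand. FOXA3 (ENSG00000170608, chr19:45863989-45873797, +), CEBPA (ENSG00000245848, chr19:33299934-33302564, −) and NR5A2 (ENSG00000116833, chr1:200027602-200177424, +) complete the group. All counts are of reads over the exons of a gene.

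The libraries held 22911380 to 45120508 counts in total. Totals were 28866175 to 45120508 in WT, 27527854 to 33865386 in shTST and 22911380 to 27414142 in overTST, and mitochondrially encoded genes took 6.84% to 11.98% of counts. That share was uneven in WT, at 6.91%, 9.42%, 6.95% and 11.98% in replicates 1 to 4. It was 6.84% to 8.65% in shTST and 10.8% to 11.7% in overTST. TST itself had 34.2 ± 1.62 CPM (counts scaled to the library size after TMM normalization) in shTST and 49.0 ± 2.59 in WT (SD, n = 4 each), and the groups did not overlap. The log2 fold change was −0.52 (SE 0.055, adjusted p = 3.2e-06 by edgeR's quasi-likelihood test), and a two-sided exact permutation test gave p = 0.0286, the smallest that 4 against 4 allow. In overTST the TST count was 57.9 ± 4.90 CPM, a log2 fold change of 0.24 (SE 0.062, adjusted p = 0.00384, edgeR), with groups that overlapped (exact permutation p = 0.0571). A codon-optimized transgene need not be counted on the native gene, so this value says little on the level of the transgene. After a correction for gene length, the overTST change of TST was 0.10 (adjusted p = 0.201, edgeR). Of 8 hepatocyte markers, none was under 1 CPM in all 4 libraries of a group, and their summed level was 16520 to 19959 CPM in WT, 18970 to 23350 in shTST and 17419 to 22700 in overTST. At an adjusted p of 0.05 or less (edgeR), 4 of the 8 were higher and 1 lower in shTST, or 62.5% beside 16.1% of all genes. In overTST 2 were higher and 0 lower, or 25% beside 33.9%. Of the markers of other cell types, CFTR (bile duct), THY1 and TWIST1 (mesenchyme), KDR (endothelium) and PTPRC (leukocytes) had 0 counts in every WT library. Others were present in WT: KRT19, SPP1, SOX9 and EPCAM of bile duct at 497 to 540, 447 to 518, 234 to 248 and 84.3 to 102 CPM. LYZ of myeloid cells was at 1594 to 1672 CPM, and the mesenchymal ACTA2 and PDGFRB at 53.5 ± 3.12 and 21.8 ± 1.60 CPM. In each group 7 of 12 mesenchymal markers were below 1 CPM in all 4 libraries, and the sum of the 12 was 90.6 to 95.3 CPM in WT, 87.4 to 89.0 in shTST and 86.1 to 97.8 in overTST. Of 5 mesenchymal markers tested, PDGFRB (−0.40, adjusted p = 0.000494) and SNAI1 (−0.54, adjusted p = 0.0133, edgeR) were lower in shTST. In overTST PDGFRB (−0.43, adjusted p = 0.000132) and ZEB1 (−0.31, adjusted p = 0.0167) were lower, and ACTA2 was higher (0.16, adjusted p = 0.0455, edgeR). These were 40% and 60% of the tested markers, beside 16.1% and 33.9% of all genes. Of the bile duct markers, EPCAM was higher in shTST (0.24, adjusted p = 0.00497, edgeR) and SPP1 lower in overTST (−0.26, adjusted p = 0.0021, edgeR). The part of such genes in the results below was not tested. The 4 endothelial markers summed to 2.51 to 3.29 CPM in WT, 1.81 to 2.16 in shTST and 3.40 to 3.91 in overTST, most of it PECAM1. Summed bile duct markers were 1276 to 1390 CPM in WT, 1243 to 1371 in shTST and 1214 to 1390 in overTST. In these bulk libraries, fewer cells with an RNA and less of it per cell cannot be told apart.

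The 9 genes spanned a wide range of RNA levels. On a scale corrected for gene length (TPM, counts scaled to gene length and library size), the order in WT was CEBPA, HNF4A, FOXA1, FOXA2, FOXA3, NR1H4, PROX1, ONECUT1 and NR5A2. CEBPA had 302 ± 34.7 TPM (SD, n = 4), more than 97.6% of the 14883 genes that passed the low-count filter in the fit of all libraries. HNF4A followed with 151 ± 15.3 TPM, FOXA1 with 102 ± 13.6, FOXA2 with 96.2 ± 9.04 and FOXA3 with 63.2 ± 5.38. The levels of FOXA1 and FOXA2 overlapped between WT libraries, whereas every other pair of neighbours in the order was separated. NR1H4 had 31.4 ± 2.32 TPM, PROX1 23.996 ± 2.15 and ONECUT1 9.84 ± 1.15. NR5A2 stood far below with 0.428 ± 0.113 TPM, a level above 6.01% of the genes that passed the filter, and ONECUT1 had 23.0 times its TPM.

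**Figure D1:**
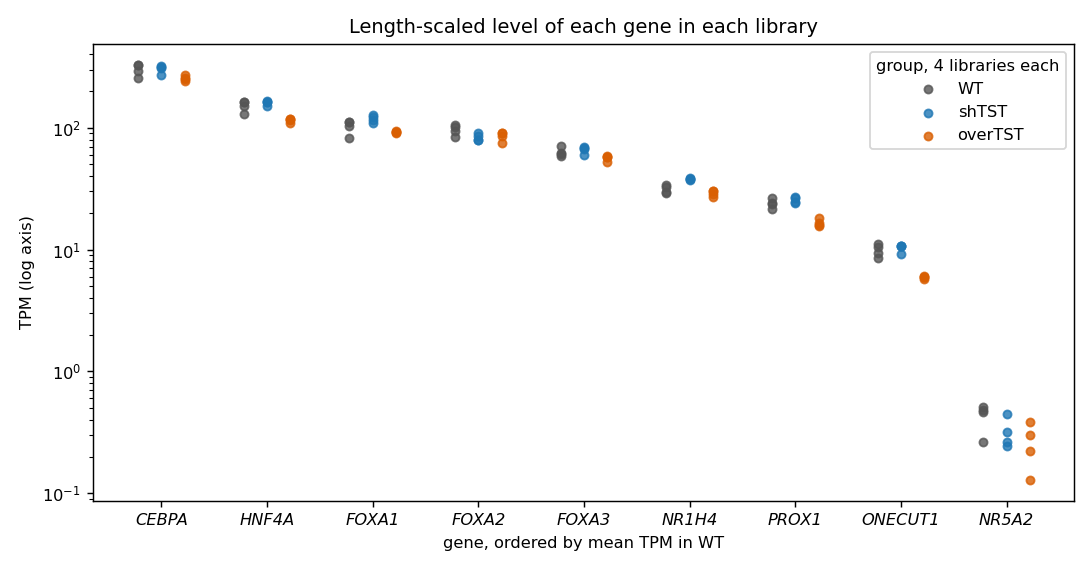
TPM (log axis) of the 9 genes in each of the 12 libraries, ordered by the mean in WT; each point is 1 library and colours mark the groups. CEBPA is highest in every group and NR5A2 lowest, and in WT the points of FOXA1 and FOXA2 overlap.

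The same order held in shTST and overTST, and no neighbours overlapped there in TPM. FOXA1 and FOXA2 in overTST did overlap when mitochondrially encoded genes were left out. TPM is a share of the whole library, mitochondrial RNA included: mean CEBPA was 257 TPM in overTST and 302 in WT, and 426 and 453 when mitochondrially encoded genes were left out. Changes between groups are therefore given on the TMM-scaled CPM, which compares 1 gene between libraries. CEBPA, for instance, had 282 ± 8.70 CPM in WT and 283 ± 18.4 CPM in overTST.

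**Figure D2:**
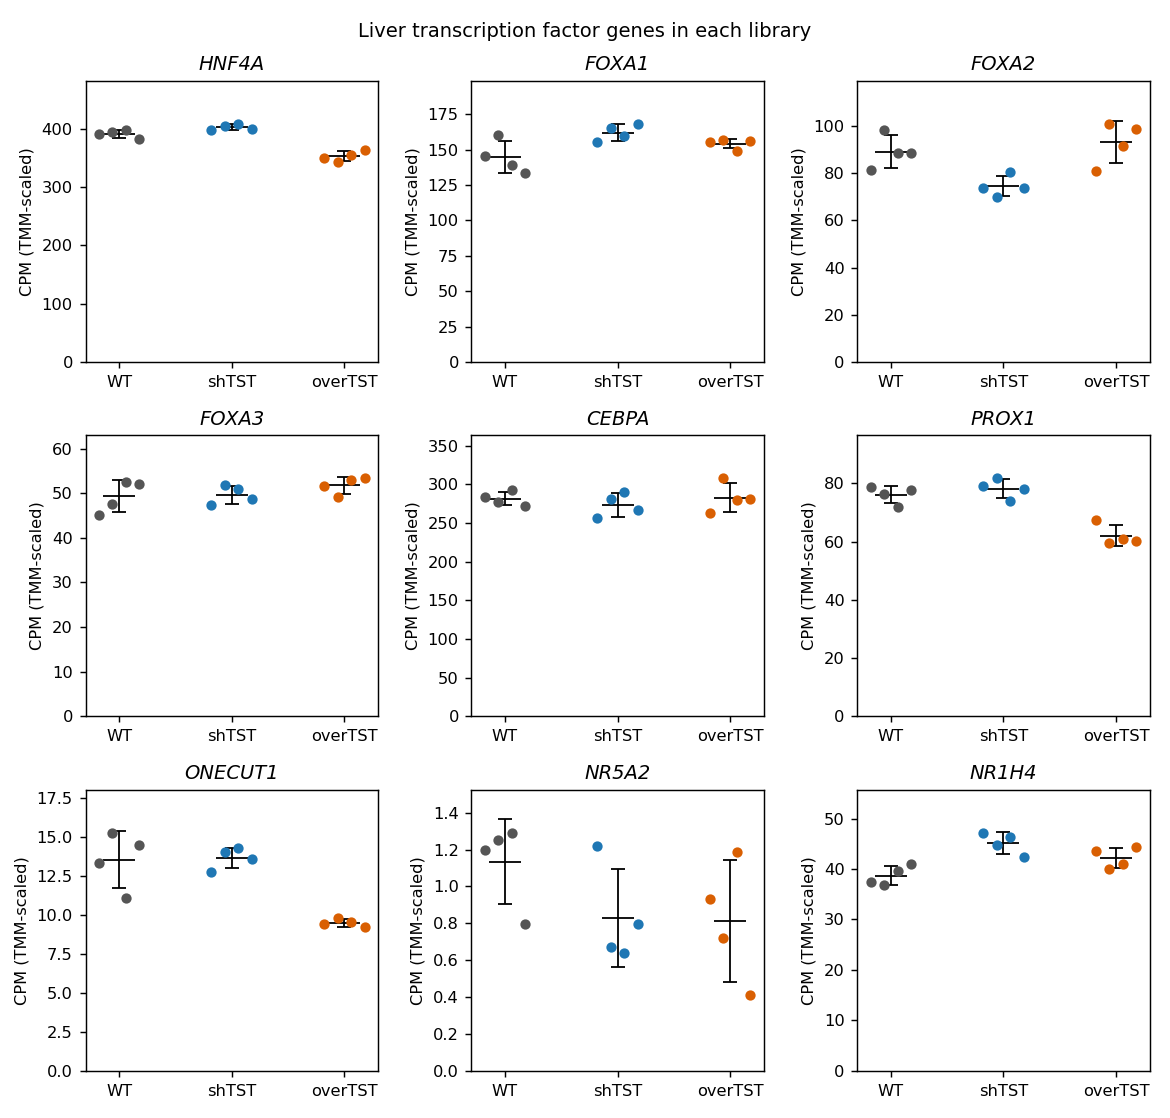
TMM-scaled CPM of each gene in the 12 libraries; points are libraries, and the bar and whiskers are the mean and SD of 4. FOXA2 is low in shTST, PROX1 and ONECUT1 are low in overTST, and NR1H4 is higher in shTST than in every WT library.

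The shTST line was first compared with WT. The part of TST, the vector or the line in the differences from WT was not tested. All 9 genes passed the filter on low counts. FOXA2 fell, FOXA1 and NR1H4 rose, and 6 genes did not pass the test, so 3 of 9 were called at an adjusted p of 0.05 or less (edgeR's quasi-likelihood test, Benjamini-Hochberg adjustment over all genes). Over all 14584 genes tested, 16.1% were called, 6.69% higher and 9.40% lower, and 41.6% of calls were higher, or 52.7% with upper-quartile scaling. The changes of the called factors were small, from −0.26 to 0.22 on the log2 scale.

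FOXA2, a pioneer factor that opens liver and endoderm enhancers, had 81.4, 98.1, 88.4 and 88.6 CPM in WT replicates 1 to 4. In shTST it had 73.8, 70.1, 80.3 and 73.9 CPM. The groups did not overlap, although the highest shTST value was close to the lowest WT value. The log2 fold change was −0.26 (SE 0.055, adjusted p = 0.00288), so FOXA2 fell by 16.4%. The call was kept under all 19 alternative settings, with changes of −0.30 to −0.20.

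FOXA1, its close relative with largely the same DNA motif, moved the other way. It had 145, 160, 140 and 134 CPM in WT and 155, 165, 160 and 168 CPM in shTST. The groups overlapped, since WT replicate 2 lay above shTST replicates 1 and 3. FOXA1 was higher by 12.01% (log2 fold change 0.16, SE 0.050, adjusted p = 0.0287). The call did not hold when a WT library was left out in 3 of 4 cases: replicate 1 (0.17, adjusted p = 0.0509), replicate 3 (0.15, adjusted p = 0.0612) or replicate 4 (0.13, adjusted p = 0.113). It was also lost without shTST replicate 2 (0.16, adjusted p = 0.0583) and without shTST replicate 4 (0.15, adjusted p = 0.0894).

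FOXA3, the third FOXA gene, had 49.4 ± 3.61 CPM in WT and 49.7 ± 2.02 in shTST, with a log2 fold change of 0.01 (SE 0.056, adjusted p = 0.911). The ratio of FOXA1 to FOXA2 in TPM was examined after these values had been seen. It was 0.986 to 1.17 in WT, 1.30 to 1.54 in shTST and 1.02 to 1.25 in overTST. The shTST ratios stood above every WT ratio. Summed TPM of the 3 FOXA genes was 226 to 278 in WT, 247 to 282 in shTST and 228 to 240 in overTST, and these ranges overlapped WT. As TPM includes mitochondrial RNA, these sums do not measure a change between groups. On TMM-scaled CPM the means in overTST and WT were 154 and 145 for FOXA1, 93.0 and 89.1 for FOXA2, and 51.8 and 49.4 for FOXA3.

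NR1H4, the bile acid receptor, had 37.5, 36.8, 39.6 and 40.9 CPM in WT. In shTST it had 47.2, 44.7, 46.3 and 42.4 CPM. No shTST library fell to the level of a WT library. The gene was higher by 16.8% (log2 fold change 0.22, SE 0.054, adjusted p = 0.00665), and it remained called under all 19 alternatives, at 0.18 to 0.26.

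The other factors gave smaller or noisier differences. HNF4A, the central regulator of hepatocyte genes, had 392 ± 6.62 CPM in WT and 403 ± 5.10 in shTST (0.04, SE 0.040, adjusted p = 0.534). CEBPA, which drives metabolic liver genes, had a log2 fold change of −0.04 (SE 0.045), PROX1 one of 0.04 (SE 0.047) and ONECUT1 one of 0.01 (SE 0.086). NR5A2 had 39, 57, 38 and 26 raw counts in WT and 34, 20, 22 and 24 in shTST. Its log2 fold change of −0.47 had an SE of 0.25 and did not pass the test (adjusted p = 0.214).

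**Figure D3:**
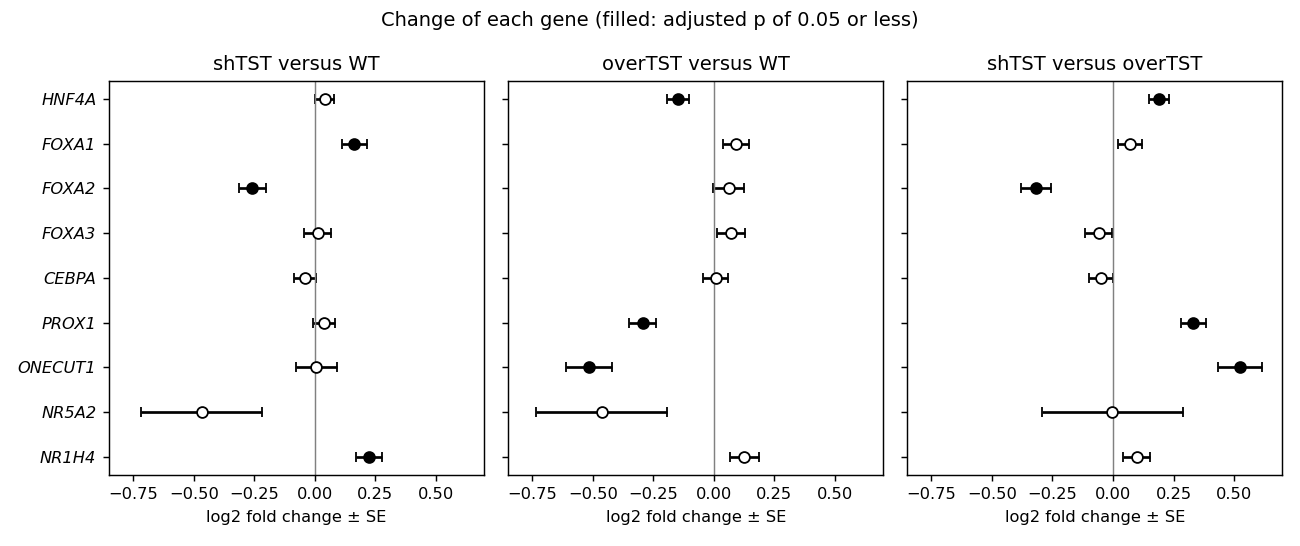
Log2 fold change with its standard error for the 9 genes in the 3 comparisons; filled points have an adjusted p of 0.05 or less. FOXA2, FOXA1 and NR1H4 are filled in shTST versus WT, and HNF4A, PROX1 and ONECUT1 in overTST versus WT, where NR5A2 has the widest error.

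The overTST line was compared with the same 4 WT libraries. HNF4A, PROX1 and ONECUT1 fell, and none of the 9 was called higher. So 3 of 9, or 33.3%, were called, close to the 33.9% of all genes. Over all 14421 genes tested, 33.9% were called, 15.7% higher and 18.2% lower, and 46.3% of calls were higher, or 54.1% with upper-quartile scaling. In this comparison the changes of all genes went with gene length: genes within 10% of the exonic length of FOXA3 (2192 bases) had a median log2 fold change of 0.14, and those near PROX1 (8928 bases) one of −0.13, against 0.03 and −0.02 in shTST. The values of genes as long as each called factor are therefore given beside it.

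ONECUT1, also known as HNF6, had 13.3, 15.3, 11.1 and 14.5 CPM in WT replicates 1 to 4. In overTST it had 9.41, 9.79, 9.55 and 9.23 CPM, from 203 to 252 raw counts. All overTST libraries lay below the lowest WT library. The log2 fold change was −0.52 (SE 0.095, adjusted p = 0.000192), so ONECUT1 fell by 30.1%. Among the 1457 genes within 10% of its exonic length of 3850 bases, the median change was 0.02 and 11.9% were called lower. With length correction ONECUT1 was at −0.53 (adjusted p = 0.000148).

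PROX1, a homeobox factor of hepatoblasts that also restrains HNF4A and NR5A2 targets, had 78.6, 76.5, 71.8 and 77.6 CPM in WT. In overTST it had 67.3, 59.5, 61.0 and 60.4 CPM. The groups did not overlap, and replicate 1 was the highest of the overTST libraries. PROX1 fell by 18.5% (log2 fold change −0.29, SE 0.055, adjusted p = 0.000213). Its exonic length is 8928 bases, and of 1038 genes within 10% of that length 37.6% were called lower, with a median of −0.13. Length correction moved PROX1 to −0.17, still called (adjusted p = 0.0123).

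HNF4A had 391, 395, 398 and 383 CPM in WT and 350, 344, 355 and 364 CPM in overTST. The groups were separate, and the SD within a group was 1.69% of the mean in WT and 2.37% in overTST. The log2 fold change was −0.15 (SE 0.045, adjusted p = 0.0125), so HNF4A fell by 9.87%. Of 1400 genes within 10% of its length of 7311 bases, 30% were called lower and the median was −0.08. With length correction HNF4A was at −0.06 and was no longer called (adjusted p = 0.375).

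The FOXA genes did not pass the test with overTST. FOXA1 had a log2 fold change of 0.09 (SE 0.053, adjusted p = 0.192), and of 19 alternatives only leaving out WT replicate 2, the highest WT library, gave a call (0.14, adjusted p = 0.0324). FOXA2 was at 0.06 (SE 0.064) and FOXA3 at 0.07 (SE 0.059), and both turned negative with length correction, at −0.04 and −0.05. CEBPA was at 0.01 (SE 0.051, adjusted p = 0.926).

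NR1H4 had 43.5, 40.1, 40.9 and 44.3 CPM in overTST, overlapping WT. Its log2 fold change was 0.13 (SE 0.060, adjusted p = 0.107), and with a correction for GC content it was 0.19 and called (adjusted p = 0.011). NR5A2 had 25, 17, 30 and 9 raw counts in overTST, with a log2 fold change of −0.46 (SE 0.27, adjusted p = 0.199).

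The lines were also compared with each other, in 1 fit of all 12 libraries, since both comparisons above share the WT libraries. Of the 9 genes, 3 were higher and 1 was lower in shTST than in overTST. Over the 14883 genes tested, 33.0% were called, 16.9% higher and 16.1% lower. Mitochondrially encoded genes took 6.84% to 8.65% of counts in shTST and 10.8% to 11.7% in overTST, without overlap (two-sided exact permutation p = 0.0286), and their part in these differences was not tested. ONECUT1 was higher by 0.52 on the log2 scale (SE 0.090, adjusted p = 9.35e-05), PROX1 by 0.33 (SE 0.051, adjusted p = 2.93e-05) and HNF4A by 0.19 (SE 0.040, adjusted p = 0.000686), and each of these genes was separate between the lines. FOXA2 was lower in shTST, at −0.32 (SE 0.063, adjusted p = 0.00041). The HNF4A difference was 0.11 with length correction and still called (adjusted p = 0.0422).

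FOXA1 differed by 0.07 (SE 0.050, adjusted p = 0.293) and NR1H4 by 0.10 (SE 0.056, adjusted p = 0.188), so neither gene was shown to differ between the lines. NR5A2 differed by −0.003 with an SE of 0.29. CEBPA differed by −0.05 (SE 0.049), and with GC correction it was at 0.11 and called (adjusted p = 0.044).

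CEBPA is the gene whose counts are least certain for position. Of its 2631 exonic bases, 43.4% lie in 2 annotated antisense genes (ENSG00000267580 and ENSG00000267727), which had 0 counts in all 12 libraries, and how the counting treated strand is not given in the sources used here. PROX1 shares 1.92% of its exonic bases with PROX1-AS1, and FOXA1 shares 16 bases with TTC6. The other 6 genes share no exonic base with another gene of the files.

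Noncoding transcripts named for or lying beside these genes had low to moderate levels. CEBPA-DT, which is transcribed away from the CEBPA start, had 12.2 ± 1.04 CPM in WT and 14.9 ± 1.33 in shTST (log2 fold change 0.29, SE 0.082, adjusted p = 0.0171), while CEBPA did not pass. LINC00261, beside FOXA2, had 62.0 ± 5.54 CPM in WT and 69.2 ± 5.31 in shTST. It did not pass the test there (0.16, SE 0.063, adjusted p = 0.0832), where FOXA2 fell, and it was higher in shTST than in overTST (0.26, SE 0.065, adjusted p = 0.00274), where FOXA2 was lower. HNF4A-AS1 had 3.39 ± 0.218 CPM in WT and PROX1-AS1 1.27 ± 0.182, and neither passed in any comparison. LNCNEF had at most 1 count in a library. TTC6 was higher in shTST (0.42, SE 0.11, adjusted p = 0.0158).

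Other genes of the same network were counted from lists. Of 29 further liver transcription factors, all tested, 0 were higher and 5 lower in shTST, or 17.2% called, close to the 16.1% of all genes, with a median log2 fold change of −0.04 where all genes had 0.004. CEBPB, an acute-phase factor, fell from 87.0 ± 6.95 to 70.3 ± 4.07 CPM (−0.31, SE 0.055, adjusted p = 0.000722), and NR1H3, the oxysterol receptor LXR alpha, fell from 33.0 ± 0.554 to 28.1 ± 1.48 CPM (−0.23, adjusted p = 0.00674). In overTST 4 were higher and 6 lower, or 34.5% called beside 33.9% of all genes, with a median of 0.02 where all genes had 0.002. ATF5 (0.25, adjusted p = 0.000614) and ZBTB20, a repressor of AFP (0.63, adjusted p = 0.00208), were higher. AFP itself did not pass in overTST (0.08, adjusted p = 0.571, edgeR). In shTST AFP was higher (0.49, adjusted p = 0.000215, edgeR), and ZBTB20 did not pass there (0.05, adjusted p = 0.864, edgeR). TBX3, a factor of hepatoblast growth (−0.38, adjusted p = 1.69e-05), and PPARA, the receptor that drives fatty acid oxidation (−0.43, adjusted p = 2.25e-05), were lower. Between the lines 6 were higher and 8 lower in shTST, or 48.3% called beside 33.0% of all genes. PPARA (0.34) and the glucocorticoid receptor NR3C1 (0.31) were higher, and CEBPD (−0.59) and NR1H2 (−0.30) lower. CEBPB in shTST was at −0.20 with GC correction (adjusted p = 0.00531), and PPARA in overTST at −0.24 with length correction (adjusted p = 0.00392), both still called. Between the lines, PPARA was at 0.18 and NR3C1 at 0.20 with length correction, and NR3C1 at 0.19 and NR1H2 at −0.19 with GC correction, all still called. The shTST count was 8 with GC correction and 3 without shTST replicate 1, and the count between the lines was 9 without shTST replicate 2 or overTST replicate 4.

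Genes that encode hepatocyte products, many of them known targets of HNF4A, CEBPA and the FOXA factors, went both ways. In shTST 8 of 35 tested were higher and 5 lower, or 37.1% called beside 16.1% of all genes, with a median of 0.04. FGB, the fibrinogen beta chain, rose from 130 ± 8.45 to 177 ± 8.27 CPM (0.44, SE 0.049, adjusted p = 5.97e-06), and ALB, albumin, from 5739 ± 555 to 7508 ± 801 CPM (0.39, SE 0.075, adjusted p = 0.0014). TTR, the thyroid hormone carrier transthyretin, fell from 95.2 ± 3.50 to 75.5 ± 3.97 CPM (−0.33, SE 0.048, adjusted p = 7.66e-05), and ABCC6 was at −0.15 (adjusted p = 0.0146). The count of 13 fell to 7 without shTST replicate 1 and to 8 without shTST replicate 4, and ABCC6 lost its call with GC correction (−0.10, adjusted p = 0.0998) and without shTST replicate 1 (−0.14, adjusted p = 0.0561), shTST replicate 2 (−0.14, adjusted p = 0.0516) or WT replicate 4 (−0.14, adjusted p = 0.0682).

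In overTST 9 of 34 hepatocyte genes were higher and 8 lower, or 50% called beside 33.9% of all genes, with a median of 0.01. APOC3 (0.53, adjusted p = 5.82e-05) and RBP4, the retinol carrier (0.30, adjusted p = 0.000614), were higher. APOB, the long structural protein of low-density lipoprotein, fell from 7832 ± 421 to 5338 ± 468 CPM (−0.55, SE 0.067, adjusted p = 1.5e-06), and FGG fell from 476 ± 39.7 to 370 ± 16.1 CPM (−0.36, adjusted p = 3.21e-05). With length correction APOB was at −0.36 (adjusted p = 8.26e-05) and APOC3 at 0.35 (adjusted p = 0.00142), both still called, and RBP4 was at 0.13 and not called (adjusted p = 0.067). Between the lines 9 of 35 were higher and 7 lower in shTST, or 45.7% called beside 33.0% of all genes. FGB (0.51) and FGG (0.50) led on one side and TTR (−0.50) and RBP4 (−0.32) on the other. With GC correction the count between the lines was 10 in place of 16, and with length correction RBP4 was at −0.18, still called.

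Bile acid genes include targets of NR1H4 and NR5A2. In shTST 1 of 17 tested was higher and 2 were lower, or 17.6% called, close to the 16.1% of all genes, with a median of 0.02. KNG1, kininogen, rose from 4.32 ± 0.424 to 6.59 ± 0.929 CPM (0.62, SE 0.12, adjusted p = 0.00102). NR0B2, the repressor SHP that NR1H4 is known to induce, fell from 39.0 ± 4.98 to 31.2 ± 1.29 CPM (−0.32, SE 0.072, adjusted p = 0.00431), while NR1H4 itself was higher in the same libraries. FGFR4, the receptor for FGF19, was at −0.16 (adjusted p = 0.0284), and it lost its call with upper-quartile scaling (−0.14, adjusted p = 0.0621) and with GC correction (−0.07, adjusted p = 0.275). Leaving out shTST replicate 1 (−0.13, adjusted p = 0.129), 2 (−0.14, adjusted p = 0.075) or 4 (−0.15, adjusted p = 0.0816), or WT replicate 3 (−0.12, adjusted p = 0.1) or 4 (−0.16, adjusted p = 0.0603), also ended the FGFR4 call.

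In overTST 3 of 17 bile acid genes were higher and 4 lower, or 41.2% called beside 33.9% of all genes, with a median of 0.06. KNG1 (0.81, adjusted p = 5.27e-05) and the sulfotransferase SULT2A1 (0.28, adjusted p = 0.000101) were higher. KLB, the co-receptor of FGFR4 (−0.36, adjusted p = 2.09e-05), and the phospholipid exporter ABCB4 (−0.43, adjusted p = 0.000172) were lower. Between the lines 5 were higher and 3 lower in shTST, or 47.1% called beside 33.0% of all genes. KLB (0.42) and BAAT, the enzyme that conjugates bile acids (0.78), were higher. NR0B2 (−0.49) and the bile acid exporter subunit SLC51B (−0.41) were lower. With length correction SULT2A1 in overTST was at 0.14 (adjusted p = 0.0184) and SLC51B between the lines at −0.27 (adjusted p = 0.0219).

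For each factor called against WT, the genes with the most similar pattern were found by the root-mean-square distance between log2 CPM values over the 12 libraries, each gene centred on its WT mean, among 11523 genes. ONECUT1 had the most distant neighbours, SACM1L at 0.0774 and DIP2C at 0.0952 log2 units. PROX1 was nearest to GIGYF2 (0.0394) and IQGAP2 (0.0400), and HNF4A to PHLPP1 (0.0396) and LAMB1 (0.0401). FOXA1 was nearest to TRIM35 (0.0413) and RCCD1 (0.0430), FOXA2 to FBRSL1 (0.0542) and METTL7B (0.0554), and NR1H4 to VRK1 (0.0511) and ALDH7A1 (0.0517). The 9 factors themselves were left out of the search. The values were not corrected for gene length, with which the overTST changes went, and the part of length in these distances was not tested. ONECUT1 had few reads, at 203 to 695 raw counts per library.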

How the data were processed

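Trimming, alignment and counting were done by the authors, and the deposited values are raw counts (whole numbers) for each Ensembl gene beside its exonic length. The submitters' processing notes name Trimmomatic 0.36, STAR 2.5.2b, featureCounts of Subread 1.5.2 and GRCh38, with no strand setting. Groups were taken from the sample labels, glycine dose and time from the study's methods. Depth was 22911380 to 45120508 counts per library, which limits the precision of low genes such as NR5A2.

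The 2 comparisons with WT used 8 libraries each, and the comparison of the lines all 12, with edgeR 4.0.16 (R 4.3.3): filterByExpr at its defaults, TMM scaling, the quasi-likelihood test and Benjamini-Hochberg adjustment over all genes at 0.05. Standard errors are the log2 fold change over the square root of F. The biological coefficient of variation was 5.85%, 6.41% and 6.02%. CPM used the TMM-scaled library sizes (prior count 2 on the log2 scale) and TPM the exonic lengths. The members and lists were chosen with earlier results of these data known. The genes named were the 9 factors, TST, the 2 higher and 2 lower called genes with the smallest p of each list and comparison, noncoding neighbours, genes overlapping a factor's exons, and the 2 genes nearest in pattern to each called factor with a mean log2 CPM of 1 or more. Length and GC corrections used a lowess trend (span 0.3) per library, with GC content from the longest GENCODE 29 transcript. Other settings were DESeq2 1.42.0, limma-voom 3.58.1, RLE and upper-quartile scaling, no filter, more than 1 CPM in at least 4 libraries, the replicate number as a block, the other choice of libraries in the fit, and leaving out each library. The procedures were tested on simulated data. Motifs were searched on both strands of RefSeq windows of 250 bases. Python 3.11.15 and matplotlib 3.10.9 were used.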

Additional observations from a re-analysis of the deposited data

Results flagged for a closer look

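In 3 of 30 groups of 4 libraries examined (the 9 factors and TST in WT, shTST and overTST), 1 library stood apart from the other 3 by Dixon's ratio of its gap to the group's range beyond its 95% critical value. Chance flags about 1 group in 20. FOXA1 in overTST replicate 3 had 149 CPM, below 156 to 157 in the other overTST libraries (ratio 0.847), and the whole group still lay within the range of WT. NR5A2 in WT replicate 4 had 0.797 CPM from 26 counts, below the other WT libraries at 1.20 to 1.29 CPM (ratio 0.846). Without that library NR5A2 was still not called in either comparison with WT. TST in shTST replicate 3 had 36.6 CPM, above the other shTST libraries (ratio 0.832) and below every WT library.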

How the results depend on the processing

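Among the 9 factors the number called in shTST against WT was 3, or 2 to 3 when libraries were left out, and 3 under every other alternative. In overTST it was 3, with 2 under length correction, 4 with GC correction and 3 to 4 when libraries were left out. Between the lines it was 4, with 5 under GC correction. FOXA2 and NR1H4 in shTST, PROX1 and ONECUT1 in overTST, and the 4 genes called between the lines kept their direction and their call under all alternatives; FOXA1 in shTST and HNF4A in overTST did not, as given above, and the cause was not tested. The order of the TPM levels was the same with RPKM and without mitochondrially encoded genes, but in either case FOXA1 and FOXA2 overlapped in overTST. Over all genes, the shTST calls numbered 1513 without shTST replicate 1, against 2346.

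Replicate numbers were shared between groups. The deviations of same-numbered libraries correlated by −0.053 to 0.080, and not every library correlated best with its own number. A pairing by number was not shown by this check, which cannot exclude one. With the replicate block 2980 genes were called in shTST and 5166 in overTST, against 2346 and 4893, the numbers of factors called were 3, 3 and 4, and HNF4A in overTST was at −0.15 (adjusted p = 0.00945, edgeR). With block and length correction together it was at −0.06 (adjusted p = 0.347).

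The changes that turned sign were all of factors not called in the comparison as reported. With length correction alone, and then with the block, FOXA3 was at −0.00128 and −0.000661 in shTST, at −0.054 and −0.054 in overTST and at 0.054 and 0.054 between the lines; CEBPA was at −0.087 and −0.088 in overTST and at 0.034 and 0.034 between the lines; and FOXA2 was at −0.038 and −0.036 in overTST. With GC correction CEBPA was at 0.063 in shTST, −0.044 in overTST and 0.11 between the lines, PROX1 at −0.00482 in shTST, and FOXA3 at 0.050 and NR1H4 at −0.011 between the lines. Without a filter ONECUT1 in shTST was at −0.00486, CEBPA in overTST at −0.015 and NR5A2 between the lines at 0.015. NR5A2 between the lines was at 0.010 with DESeq2, 0.029 with limma-voom and 0.026 with the block. Leaving out libraries moved FOXA3 in shTST from −0.028 to 0.045, ONECUT1 in shTST from −0.072 to 0.073, CEBPA in overTST from −0.034 to 0.039 and NR5A2 between the lines from −0.23 to 0.23. DESeq2 gave no adjusted p for NR5A2 in shTST, and its 9 to 57 counts per library over the 3 groups limit every statement on it.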
